A study of Mus musculus with 8 samples.

Results

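The genes examined were 9 that act in MHC class I antigen presentation, namely B2m, H2-K1, H2-D1, Tap1, Tap2, Tapbp, Psmb8, Psmb9 and Irf1, out of 13797 genes with a value in RNA sequencing of mouse intestinal organoids. They were taken as a named list. The organoids were epithelial cultures grown in Matrigel from isolated small intestinal crypts, and 4 samples carried the MG53-TG genotype while 4 were wild type (WT). MG53-TG mice overexpress MG53, an E3 ubiquitin ligase encoded by Trim72, throughout the body, and were compared with WT littermates. The promoter that drives the transgene, the strain, the age and any treatment of these cultures are not given in the sources used here, and the study's text on organoids also describes mice that carry an Lgr5 reporter allele, whereas the labels of these samples name only the wt and mg53-tg genotypes. The labels do not say whether the 4 samples of a genotype came from separate mice or cultures, so the p-values below measure the spread between these samples, which may be technical.

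MHC class I molecules display peptides from inside the cell to CD8+ T cells. A heavy chain pairs with beta-2-microglobulin in the endoplasmic reticulum and receives a peptide that the proteasome has cut from cellular protein and that the TAP transporter has carried across the membrane, while tapasin holds the empty heavy chain beside the transporter. Intestinal epithelial cells use this route all the time and raise it under interferon, which replaces the catalytic subunits of the proteasome with inducible ones and acts on these genes in part through the transcription factor IRF1.

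Levels are in FPKM, a measure of fragments scaled to the length of the transcript and to the mapped fragments of the sample, so that genes can be set side by side per length. The authors deposited one FPKM for each start, end or splicing event of a transcript, and a gene's level here is the sum over its start events, or over its end events where these were higher. The genotypes were compared on log2(FPKM + 1) by limma across the 10765 genes whose mean reached 0.5 FPKM, and a gene passed at an adjusted p (Benjamini-Hochberg) of at most 0.05. Adding 1 FPKM makes the log2 fold changes of low genes too small. The depth of the samples is unknown without read counts. Start event values summed to between 269094 and 284330 FPKM per sample. Trim72 was not listed for the WT samples and stood at 16.4, 27.4, 31.9 and 36.5 FPKM in MG53-TG replicates 1 to 4, as the labels say.

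The 2 genotypes differed widely, and this sets the background for the class I genes. Of the genes tested, 44.6% passed the threshold, 15.5% as higher and 29.1% as lower in MG53-TG. Of 8 general epithelial markers 5 were lower in MG53-TG (Cdh1, Krt8, Krt18, Cdx1 and Cdx2), Vil1 was higher, and Epcam (438 ± 38.4 FPKM in WT and 443 ± 43.7 in MG53-TG, SD, n = 4 each) and Krt19 did not pass. The 8 enterocyte markers examined were all higher in MG53-TG, with a summed level of 802 to 958 FPKM in WT and 11070 to 12170 in MG53-TG. All 4 Paneth cell markers with a value and all 5 goblet cell markers were lower, as were 3 of 5 stem cell markers. Both enteroendocrine markers with a value, Chga and Chgb, were higher (adjusted p = 8.33e-05 and 2.29e-05, limma). The mesenchymal genes Col1a2 and Col3a1 had no entry in WT and in MG53-TG replicate 1, and stood at 0.739 to 2.07 and 0.904 to 1.62 FPKM in MG53-TG replicates 2 to 4. Of the other 4 mesenchymal markers, Vim did not pass (2.41 FPKM in WT and 1.59 in MG53-TG, adjusted p = 0.126, limma), Col1a1 was under the filter, and Pdgfra and Acta2 had no value. Among the MG53-TG samples, replicates 3 and 4 stood apart in stem cell markers, with Olfm4 at 6.07 and 0.948 FPKM against 50.1 and 57.7 in replicates 1 and 2. Immune cell markers were near 0, since 14 of 17, Cd3d and Cd8a included, had no value, and the other 3 (Ptprc, Cd3e and Fcer1g) summed to at most 0.0931 FPKM in any sample. In bulk samples fewer cells of a type and less RNA per cell cannot be told apart, and the part of these shifts in the values below was not tested.

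All 9 class I genes had a value in every sample and all 9 passed the filter on low values. Of these, 5 rose in MG53-TG (B2m, Tap2, Tapbp, Psmb9 and Irf1), beside 15.5% of all genes tested. None fell by limma's adjusted p, beside 29.1% of all genes tested, and 4 did not pass (H2-K1, H2-D1, Tap1 and Psmb8), of which H2-D1 and Psmb8 were lower at unadjusted p = 0.0314 and 0.0401. Their median log2 fold change was 0.60, and that of all genes tested was -0.17. In 7 of the 9 the values of the groups did not overlap, with 5 higher and 2 lower in MG53-TG. Among the 10433 tested genes with a value in each sample 44.8% did not overlap, 15.7% as higher and 29.1% as lower. Thus the light chain, tapasin, 1 of the 2 transporter subunits, 1 of the 2 inducible proteasome subunits and IRF1 were higher, and the classical heavy chains did not pass. The same 5 genes also passed under median-of-ratios scaling and quantile normalization, H2-K1 joining them as higher under the first and H2-D1 as lower under the second.

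**Figure D1:**
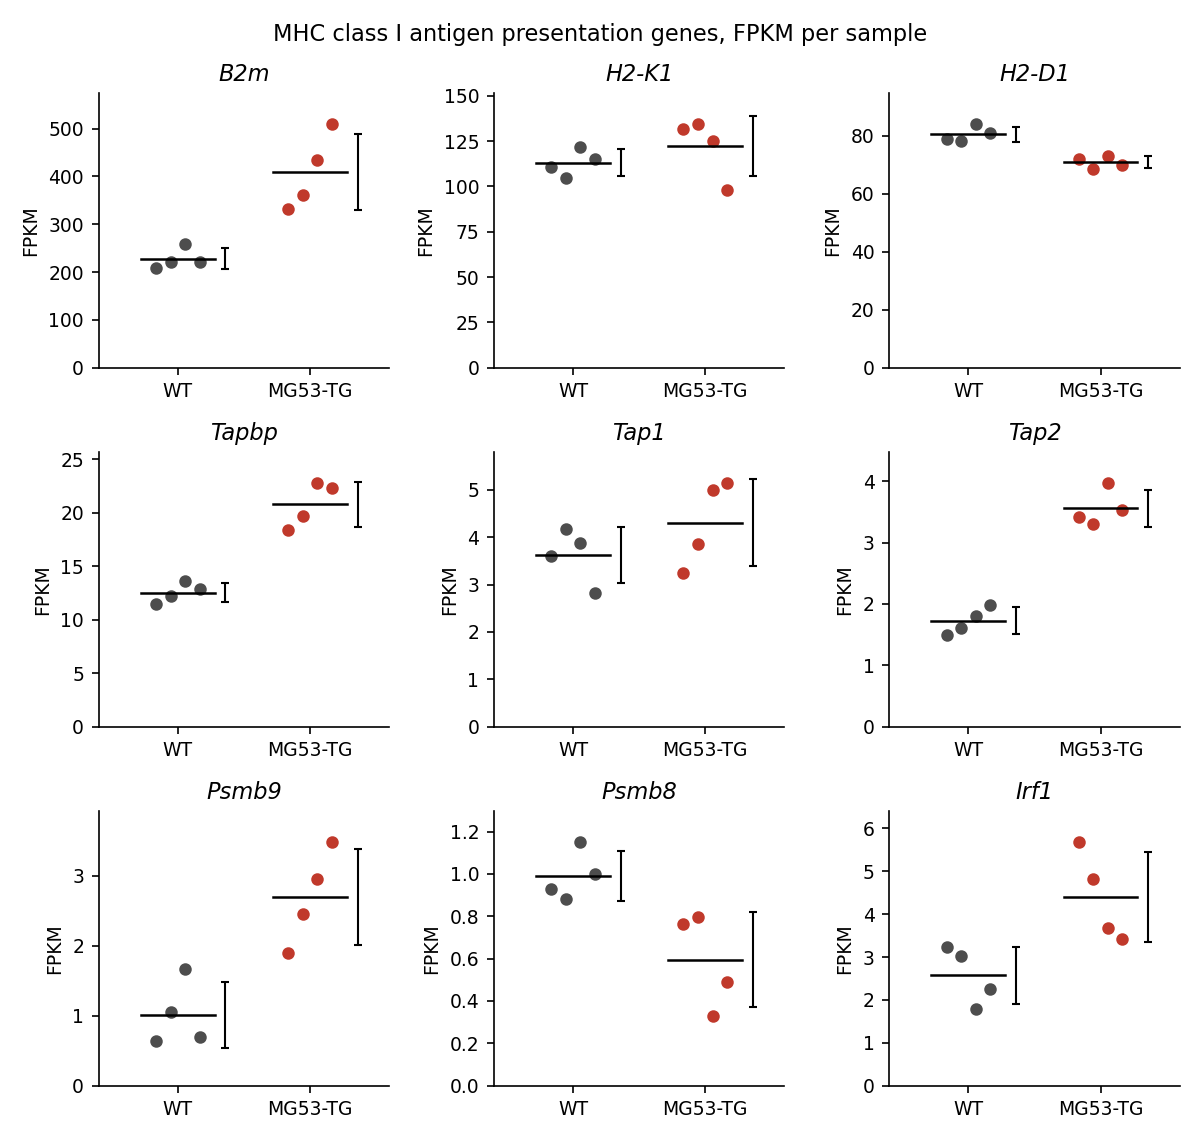
Level of each of the 9 class I genes in FPKM (y axes, linear, from 0) in the 4 WT (grey) and 4 MG53-TG (red) samples, with replicates 1 to 4 from left to right, the mean as a line and the SD as a bar beside it. B2m, Tapbp, Tap2, Psmb9 and Irf1 sit higher in all MG53-TG samples, H2-D1 and Psmb8 sit lower, and H2-K1 and Tap1 overlap.

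The sequences before the start sites of these genes were examined because the group is known for its answer to interferon. RefSeq promoters were matched for 8 of the 9 genes (10 start sites, GRCm38.p6), each from 250 bases before to 50 bases after the start. They were searched on both strands for GAAA followed by any 2 bases and GAAA, the core letters of the interferon-stimulated response element bound by IRF proteins, and TTCNNNGAA, the letters of the gamma-activated site. A shorter form of the element, GAANNGAAA, was added after the first search had been seen. The core was found in 3.44% of 32851 promoters, GAANNGAAA in 7.52% and TTCNNNGAA in 8.30%, and no match overlapped another in these genes. The 250 bases before the start are shown 5′ to 3′ on the strand of the gene for the light chain, both heavy chains and the genes with a match, and for Psmb9, where none was found, with matches in capitals. H2-K1 and Irf1 have 2 start sites in the table, of which 1 is shown.
B2m (chr2:122147437-122147686, plus strand): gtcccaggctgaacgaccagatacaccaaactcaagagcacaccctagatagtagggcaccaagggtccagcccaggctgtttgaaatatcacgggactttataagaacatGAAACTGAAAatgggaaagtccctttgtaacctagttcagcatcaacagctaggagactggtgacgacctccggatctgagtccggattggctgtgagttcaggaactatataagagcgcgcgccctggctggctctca
H2-K1 (chr17:34000348-34000597, minus strand): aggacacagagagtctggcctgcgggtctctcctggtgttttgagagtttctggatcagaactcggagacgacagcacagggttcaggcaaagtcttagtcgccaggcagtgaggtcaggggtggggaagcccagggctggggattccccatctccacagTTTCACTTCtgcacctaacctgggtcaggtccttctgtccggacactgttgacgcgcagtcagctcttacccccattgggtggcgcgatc
H2-D1 (chr17:35262844-35263093, plus strand): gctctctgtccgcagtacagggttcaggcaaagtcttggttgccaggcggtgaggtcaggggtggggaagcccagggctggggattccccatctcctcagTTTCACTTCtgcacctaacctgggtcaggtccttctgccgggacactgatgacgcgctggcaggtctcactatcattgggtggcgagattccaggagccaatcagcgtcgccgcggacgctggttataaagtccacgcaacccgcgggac
Irf1 (chr11:53769764-53770013, plus strand): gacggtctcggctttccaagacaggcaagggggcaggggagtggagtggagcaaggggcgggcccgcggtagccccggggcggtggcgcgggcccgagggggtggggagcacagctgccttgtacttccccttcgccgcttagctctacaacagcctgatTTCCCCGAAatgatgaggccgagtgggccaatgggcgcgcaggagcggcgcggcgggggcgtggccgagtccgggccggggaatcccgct
Psmb8 (chr17:34197945-34198194, plus strand): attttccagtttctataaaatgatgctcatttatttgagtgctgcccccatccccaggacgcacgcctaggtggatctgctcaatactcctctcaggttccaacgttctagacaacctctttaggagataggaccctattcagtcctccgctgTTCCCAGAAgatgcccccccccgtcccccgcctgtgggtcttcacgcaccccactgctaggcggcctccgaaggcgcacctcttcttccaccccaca
Psmb9 (chr17:34187331-34187580, minus strand): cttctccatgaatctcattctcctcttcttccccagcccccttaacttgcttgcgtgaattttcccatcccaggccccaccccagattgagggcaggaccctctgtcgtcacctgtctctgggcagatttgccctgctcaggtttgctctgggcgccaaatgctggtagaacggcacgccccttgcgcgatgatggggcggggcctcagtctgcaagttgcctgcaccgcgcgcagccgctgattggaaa

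B2m held GAAACTGAAA at 139 to 130 bases before its start. H2-K1 and H2-D1 each held the shorter form as GAAGTGAAA on the opposite strand, 90 to 82 bases before the start of H2-K1 and 150 to 142 bases before that of H2-D1. The promoters of this pair also shared an identical run of 47 bases just upstream of that match. TTCNNNGAA was found in Irf1 as TTCCCCGAA, 90 to 82 bases before the start, and in Psmb8 as TTCCCAGAA, 97 to 89 bases before. No match lay in the windows of Tap1, Psmb9 and Tapbp. Of the 5 genes that rose, B2m and Irf1 held a match, Psmb9 and Tapbp did not, and Tap2, which had no matched promoter, was not searched. H2-K1, H2-D1 and Psmb8, which did not pass, each held 1. A match is a description of letters and not a binding site.

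B2m encodes beta-2-microglobulin, the light chain that every class I heavy chain needs to reach the cell surface. The gene lies at chr2:122147686-122153083 (plus strand, GRCm38). Its level was 209, 221, 259 and 220 FPKM in WT replicates 1 to 4 and 332, 361, 435 and 510 FPKM in MG53-TG replicates 1 to 4. The groups did not overlap, and the 2 highest values were in MG53-TG replicates 3 and 4. The mean level was 1.80-fold higher (227 ± 21.9 against 409 ± 79.6 FPKM, SD, n = 4 each), and the log2 fold change was 0.83 ± 0.14 (SE, adjusted p = 0.00183, limma). B2m lies wholly within Patl2, which runs on the opposite strand and had no value in any sample. The B2m level rests on 1 end event in the last exon, since a start row under its identifier, listed only in MG53-TG replicate 3, matched no annotated exon and was left out.

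H2-K1 and H2-D1 encode the heavy chains of the classical class I molecules, which bind the peptide and are read by CD8+ T cells. H2-K1 (chr17:33996017-34000347, minus strand) stood at 111, 105, 122 and 115 FPKM in WT and at 132, 134, 125 and 98.0 FPKM in MG53-TG replicates 1 to 4. The groups overlapped, with the 3 highest values and the lowest value of all 8 samples in MG53-TG. The log2 fold change was 0.10 ± 0.11 (SE, 95% interval -0.16 to 0.36, adjusted p = 0.494, limma). Its sign depended on the scaling of the samples: it was 0.29 with adjusted p = 0.0396 under median-of-ratios scaling and -0.06 with adjusted p = 0.724 after quantile normalization, where the median of all genes moved up by 0.16 and 0.12.

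H2-D1 (chr17:35262730-35267499, plus strand) stood at 79.0, 78.4, 84.1 and 81.0 FPKM in WT and at 72.1, 68.5, 73.1 and 70.0 FPKM in MG53-TG. Every MG53-TG value was below every WT value, and the spread within each group was small (80.6 ± 2.58 and 70.9 ± 2.08 FPKM, SD, n = 4 each). The log2 fold change of -0.18 ± 0.07 (SE) did not pass (adjusted p = 0.0653, limma), and it lay at the 48.9th percentile of all genes tested. It was 0.01 under median-of-ratios scaling (adjusted p = 0.958), and passed after quantile normalization (-0.23, adjusted p = 0.0244) and without the filter on low values (adjusted p = 0.0371). The coding sequences of H2-K1 and H2-D1, of 1107 and 1086 bases, were identical at 91.5% of 1077 aligned bases, so reads of this pair could be split unevenly. Their sum differed by -0.01 on the log2 scale (adjusted p = 0.952).

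The light chain thus rose, while the sum of the 2 classical heavy chains did not pass. As a description made after these values were seen, the ratio of B2m to the sum of H2-K1 and H2-D1 was 1.10, 1.21, 1.26 and 1.12 in WT and 1.63, 1.78, 2.20 and 3.03 in MG53-TG replicates 1 to 4. The ratio was above the WT range in each MG53-TG sample and was highest in replicate 4, where B2m was highest and H2-K1 lowest. It leaves out the other heavy chain genes described below, which summed to 118 to 142 FPKM in WT and 159 to 253 FPKM in MG53-TG. It is therefore not a ratio of the light chain to all heavy chains.

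Tapbp encodes tapasin, which bridges the heavy chain to the TAP transporter and edits the bound peptide. The gene (chr17:33915899-33929292, plus strand) stood at 11.4, 12.3, 13.6 and 12.9 FPKM in WT and at 18.4, 19.7, 22.8 and 22.3 FPKM in MG53-TG. The groups did not overlap, and the mean was 1.66-fold higher in MG53-TG. On the log2 scale the change was 0.68 ± 0.11 (SE, adjusted p = 0.00117, limma). Of its 7 start and end rows, 2 began at exon boundaries shared with the overlapping gene Zbtb22 and were left out. With both kept, an alternative chosen once the values were known, it was 0.42 on the log2 scale (adjusted p = 0.00782).

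The remaining members of the peptide route lie side by side on chromosome 17. Psmb9, Tap1, Psmb8 and Tap2 span 34.3 kb, within the 1350 kb that hold 7 of the 9 genes. Psmb9 and Tap1 are read in opposite directions, they overlap by 212 bases at their annotated starts, and 225 of the 250 promoter bases shown above for Psmb9 are also those of Tap1. Tap1 and Tap2 form the transporter as a pair, and Psmb8 and Psmb9 are catalytic subunits of the immunoproteasome. In MG53-TG, Psmb9 and Tap2 at the ends of this cluster passed the threshold and Tap1 and Psmb8 between them did not, and the differences between the genes were not tested.

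**Figure D2:**
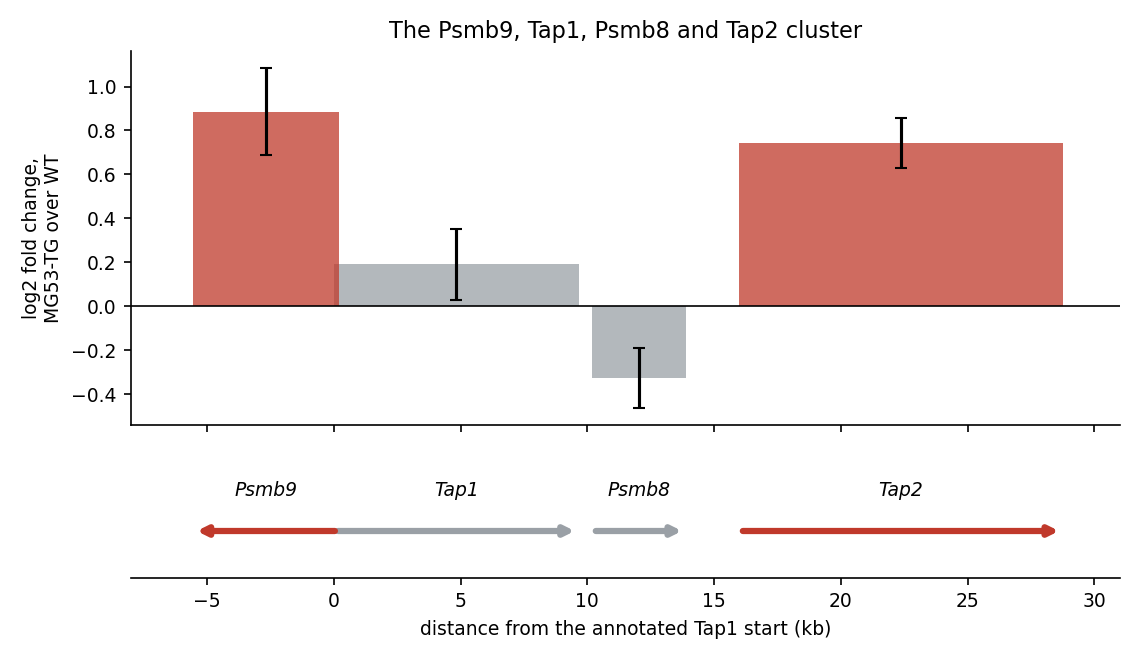
The Psmb9, Tap1, Psmb8 and Tap2 cluster by distance from the annotated Tap1 start in kb (x axis), with arrows in the direction of transcription and, above, the log2 fold change of MG53-TG over WT with its SE as bars. Psmb9 (0.89) and Tap2 (0.74) at the ends passed the threshold (red), and Tap1 (0.19) and Psmb8 (-0.33) between them did not (grey).

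Tap1 (chr17:34187553-34197225, plus strand) stood at 3.61, 4.18, 3.88 and 2.83 FPKM in WT and at 3.24, 3.85, 5.01 and 5.15 FPKM in MG53-TG. The groups overlapped, and the 2 highest values were MG53-TG replicates 3 and 4. The log2 fold change was 0.19 ± 0.16 (SE, 95% interval -0.17 to 0.56, adjusted p = 0.36, limma). It ranged without a call from 0.103 to 0.294 when 1 sample was left out. Under median-of-ratios scaling it was 0.345 and after quantile normalization 0.341 (adjusted p = 0.168 and 0.184, limma).

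Tap2 (chr17:34203527-34216321, plus strand) stood at 1.5, 1.61, 1.80 and 1.99 FPKM in WT and at 3.41, 3.30, 3.97 and 3.54 FPKM in MG53-TG. The groups did not overlap, and the mean was 2.06-fold higher in MG53-TG. On log2(FPKM + 1) the fitted change was 0.74 ± 0.11 (SE, adjusted p = 0.00106, limma). As a description, the ratio of Tap2 to Tap1 lay between 0.385 and 0.704 in WT and between 0.688 and 1.05 in MG53-TG, so that the groups overlapped.

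Psmb9 encodes the inducible subunit that takes the place of Psmb6. The gene (chr17:34181987-34187764, minus strand) stood at 0.633, 1.06, 1.66 and 0.693 FPKM in WT and at 1.89, 2.46, 2.95 and 3.48 FPKM in MG53-TG. The groups did not overlap, and the WT samples varied more than those of any other member, with a coefficient of variation of 46.7%. The mean was 2.66-fold higher in MG53-TG, and the log2 fold change was 0.89 ± 0.20 (SE, adjusted p = 0.00728, limma).

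Psmb8 encodes the inducible counterpart of Psmb5 and was the member with the lowest level. The gene (chr17:34197721-34201454, plus strand) stood at 0.928, 0.880, 1.15 and 0.998 FPKM in WT and at 0.766, 0.795, 0.327 and 0.491 FPKM in MG53-TG. Each MG53-TG value was below each WT value, and replicates 3 and 4 were the lowest. The log2 fold change of -0.33 ± 0.14 (SE) did not pass (adjusted p = 0.0789, limma). With 0.1 FPKM added in place of 1 it was -0.71 and did not pass either (adjusted p = 0.0851, limma). In these low values the ratio of Psmb9 to Psmb8, computed as a description, was 0.682 to 1.44 in WT and 2.47 to 9.0 in MG53-TG. The genes Gm20496 and Gm15821 lie on the opposite strand of Psmb8 or Tap2, and whether the libraries kept the strand is not given in the sources used here.

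Each inducible subunit was then set against its constitutive counterpart, which fills the same place in the standard proteasome. Inducible subunits made up a small part of each pair. The share of Psmb9 in the sum of Psmb9 and Psmb6 was 0.608%, 1.19%, 1.97% and 0.806% in WT and 2.03%, 2.60%, 3.24% and 4.21% in MG53-TG. The share of Psmb8 beside Psmb5 was 0.954%, 0.973%, 1.38% and 1.17% in WT and 0.864%, 0.854%, 0.481% and 0.778% in MG53-TG. The share of Psmb10, the third inducible subunit, beside Psmb7 was 8.61%, 5.37%, 8.90% and 8.45% in WT and 9.93%, 10.2%, 16.0% and 11.5% in MG53-TG. By share, all 3 pairs separated the groups, with Psmb9 and Psmb10 higher and Psmb8 lower in MG53-TG.

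In the 3 tests of these ratios, made on log2 values with 1 FPKM added, none passed after adjustment. The log2 ratio of Psmb10 to Psmb7 was higher by 0.63 (two-sided exact permutation test over 70 relabellings, p = 0.0286, the smallest possible, adjusted p = 0.0857). That of Psmb9 to Psmb6 was higher by 0.92 (exact permutation p = 0.0571, adjusted p = 0.0857), and that of Psmb8 to Psmb5 was lower, with a difference of -0.13 (exact permutation p = 0.229, adjusted p = 0.229). With 0.1 FPKM added in place of 1, which weighs low levels more, the differences were 0.67, 1.42 and -0.51, each with adjusted exact permutation p = 0.0286. The constitutive subunits themselves did not pass in MG53-TG, with log2 fold changes of -0.20 for Psmb5, -0.03 for Psmb6 and -0.28 for Psmb7 (adjusted p = 0.272, 0.823 and 0.0606, limma). Psmb7 was lower in MG53-TG without overlap of the groups, and passed as lower after quantile normalization.

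**Figure D3:**
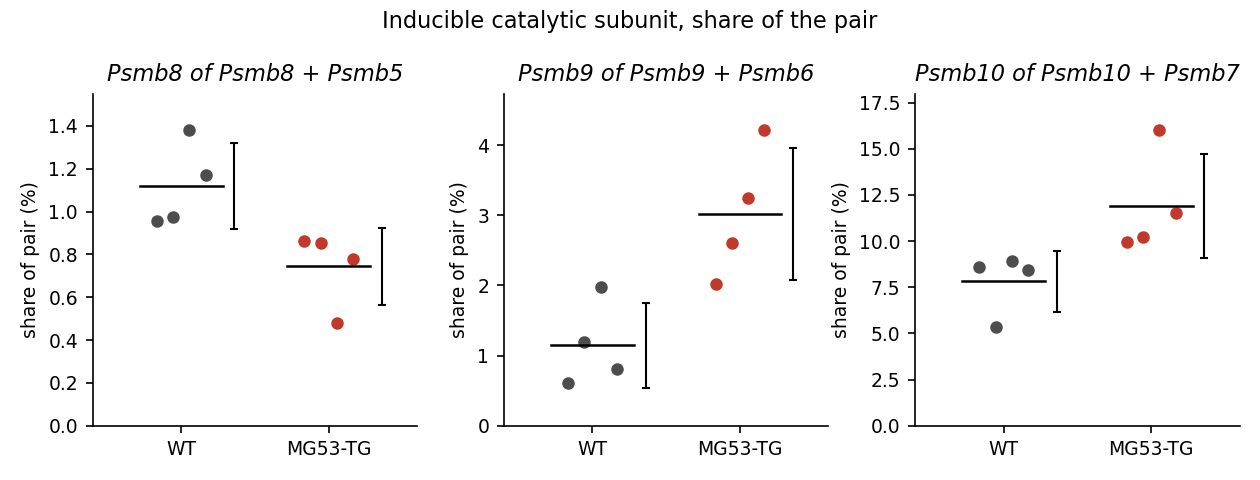
Share of the inducible subunit in the FPKM of its pair in percent (y axes, linear, from 0, a scale for each pair) in the 4 WT (grey) and 4 MG53-TG (red) samples, with replicates 1 to 4 from left to right, the mean as a line and the SD as a bar. The Psmb9 share lies between 2.03% and 4.21% in MG53-TG and at most at 1.97% in WT, while the Psmb8 share lies below the WT range.

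Irf1 encodes the interferon-induced transcription factor that acts on the promoters of class I genes. The gene (chr11:53770014-53778374, plus strand) stood at 3.22, 3.02, 1.79 and 2.25 FPKM in WT and at 5.69, 4.83, 3.69 and 3.41 FPKM in MG53-TG. The groups did not overlap, and within MG53-TG the order was the opposite of that of B2m, with the highest Irf1 in replicate 1. The log2 fold change was 0.60 ± 0.19 (SE, adjusted p = 0.0296, limma). With 1 sample left out it passed in 4 of 8 fits, and was lost without WT replicate 3 (0.49, adjusted p = 0.0745), WT replicate 4 (0.56, adjusted p = 0.0741), MG53-TG replicate 1 (0.49, adjusted p = 0.0651) or MG53-TG replicate 2 (0.55, adjusted p = 0.0591). B2m, Tap2, Tapbp and Psmb9 passed in all 8 such fits. Gm17334 overlaps Irf1 by 907 bases on the opposite strand.

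Within the groups the members did not vary as 1 block. As a description over the 8 samples, whose values share a library within each sample, the deviations from the group means correlated most strongly between B2m and Tapbp (r = 0.89) and between B2m and Psmb9 (r = 0.88), and most negatively between Tapbp and Irf1 (r = -0.96) and between B2m and Irf1 (r = -0.89). Of 9005 other genes whose mean reached 2 FPKM, those whose deviations were most like the mean deviation of the members were Abhd12 (r = 0.98), Dusp6 (r = 0.97), C530008M17Rik, 6820431F20Rik and Atxn10 (r = 0.96 each, n = 8 samples). Of these 5, C530008M17Rik was higher in MG53-TG (3.75 against 11.8 FPKM), Atxn10 was lower (14.4 against 10.1 FPKM), and the other 3 did not pass.

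Beside the 2 classical heavy chains, 12 of 14 other heavy chain genes were tested. Of these 6 rose and 1 fell, beside 15.5% and 29.1% of all genes tested, and 5 did not pass. The median log2 fold change of the 12 was 0.53, counting H2-T10 and H2-Bl, which reached the filter only through their MG53-TG values. These genes, of the Q, T and M regions, include those of Qa and TL antigens, which are not classical class I molecules. H2-T3, which encodes the thymus leukemia antigen of gut epithelium, was at 4.50, 4.37, 3.87 and 0.855 FPKM in WT and at 15.4, 20.1, 18.2 and 18.4 FPKM in MG53-TG (log2 fold change 2.23 ± 0.33, SE, adjusted p = 0.000912, limma). H2-Q2 was at 11.5, 11.6, 13.3 and 10.5 FPKM in WT and at 38.3, 39.1, 78.2 and 76.4 FPKM in MG53-TG (2.14 ± 0.25, adjusted p = 0.000263). H2-T23, the gene of Qa-1, was at 10.6, 10.2, 13.7 and 13.2 FPKM in WT and at 28, 26.2, 37.6 and 49.8 FPKM in MG53-TG (1.46 ± 0.21, adjusted p = 0.000709). In all 3 the groups did not overlap, and MG53-TG replicates 3 and 4 were the highest for H2-Q2 and H2-T23.

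H2-Q1 (log2 fold change 1.05), H2-M3 (0.61) and H2-T22 (0.54) also rose, without overlap of the groups. H2-Q7, the gene of Qa-2, fell by 1.02 on the log2 scale (adjusted p = 0.0164, limma), from 5.26 to 9.50 FPKM in WT to 1.9 to 5.54 FPKM in MG53-TG, and its groups overlapped. H2-Q4 (0.24), H2-Q6 (-0.48), H2-Q10 (-0.29), H2-T10 (0.50, with no value in MG53-TG replicate 1) and H2-Bl (0.52) did not pass. H2-M2 had no entry in WT and was at no more than 0.488 FPKM in MG53-TG, under the filter, and H2-T24 had no value. The same 6 genes rose and H2-Q7 fell under both other scalings, and H2-T10 was also called higher after quantile normalization. H2-T10 (0.283 FPKM in WT and 0.819 in MG53-TG) and H2-Bl (0.327 and 1.01 FPKM) reached the filter of 0.5 FPKM only through their MG53-TG values. Nothing is concluded from their changes or from that call. Coding sequences of H2-Q6 and H2-Q7 were identical at 95.4% of aligned bases and those of H2-Q4 and H2-D1 at 90.4%, so values within the Q region are uncertain. H2-T3 was identical to H2-K1 at 75.4% and H2-T23 at 82.8%.

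Among the other loading and trimming genes, 3 of 8 tested fell, beside 29.1% of all genes tested, and none rose, beside 15.5%. The other 5 did not pass by limma's adjusted p, with 1 of these (Psme2) higher at an unadjusted p under 0.05. The median log2 fold change of the 8 was -0.04, and became 0.15 under median-of-ratios scaling and 0.08 after quantile normalization. Under both, Psme2 passed as higher and Erap1 no longer passed, while Canx and Pdia3 fell under each scaling. Canx, the chaperone calnexin that folds new heavy chains, fell from 133 ± 15.5 to 86.4 ± 12.1 FPKM (SD over 4 samples, log2 fold change -0.62, adjusted p = 0.00431, limma). Pdia3, the oxidoreductase joined to tapasin in the loading complex, fell from 173 ± 8.93 to 111 ± 14.4 FPKM (-0.64, adjusted p = 0.00145). Erap1, which trims peptides in the endoplasmic reticulum, fell from 12.9 ± 1.41 to 9.60 ± 0.319 FPKM (-0.38, adjusted p = 0.0166). Canx and Pdia3 also serve the folding of glycoproteins in general.

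Calr (log2 fold change -0.32), Tapbpl (0.28, or 4.95 against 6.35 FPKM), Psmb10 (0.35), Psme1 (0.24) and Psme2 (0.52, adjusted p = 0.0619, limma) did not pass. Psme1 and Psme2 encode the interferon-induced proteasome cap PA28. Nlrc5, the transactivator of class I genes, was at no more than 0.136 FPKM in any sample, under the filter. Among class I-like genes outside the complex, 2 of the 5 listed were tested, and both were called higher. Fcgrt, the neonatal Fc receptor heavy chain, which also pairs with beta-2-microglobulin, rose from 0.840 to 5.14 FPKM (1.73, adjusted p = 0.000469, limma), and Azgp1 from 0.286 to 0.783 FPKM (0.48, adjusted p = 0.041). Azgp1 reached the filter of 0.5 FPKM only through its MG53-TG values, so nothing is concluded from its call. Cd1d1 (0.398 FPKM in WT and 0.149 in MG53-TG), Mr1 and Hfe were under the filter.

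**Figure D4:**
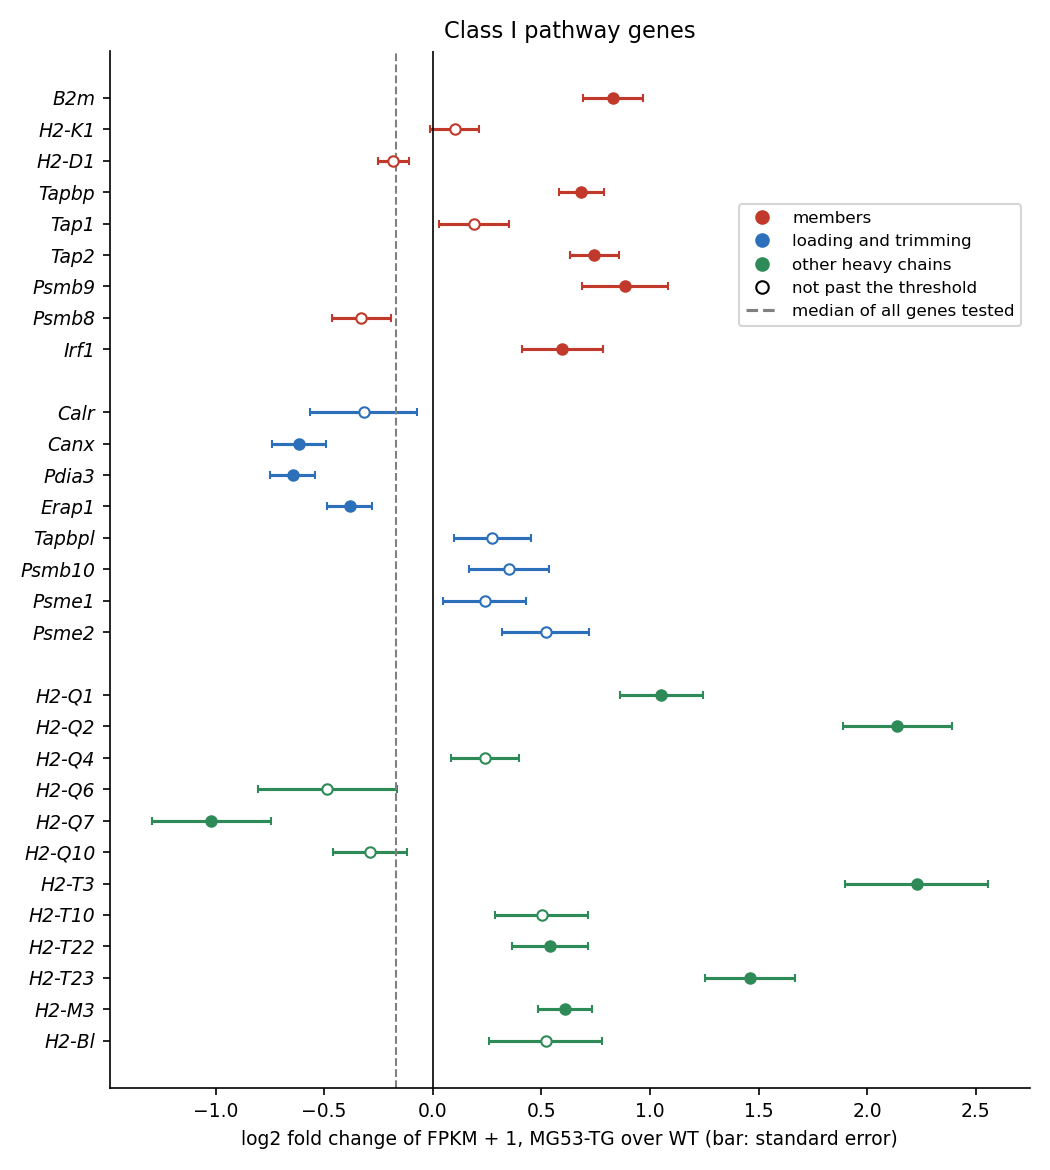
Log2 fold change of FPKM + 1 in MG53-TG over WT (x axis) for the 9 members (red), 8 loading and trimming genes (blue) and 12 other heavy chain genes (green), with the SE as a bar, open circles where the threshold was not passed, and a dashed line at the median of all genes tested (-0.17). H2-T3 (2.23) and H2-Q2 (2.14) lie farthest to the right, while Canx and Pdia3 lie to the left of the median.

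Most genes upstream did not pass. Of 17 tested genes of interferon receptors, kinases and transcription factors, 2 rose, 1 fell and 14 did not pass, with a median log2 fold change of 0.04. For this list and those that follow, the shares of all genes tested were 15.5% higher and 29.1% lower. Ifnar2, a subunit of the type I interferon receptor, rose (2.94 to 6.47 FPKM, log2 fold change 0.95, adjusted p = 0.00304, limma), as did Il10rb, a subunit shared by the receptors of interferon lambda and IL-10 (14.2 to 22.4 FPKM, 0.62, adjusted p = 0.00185). Jak1 fell by 0.38 on the log2 scale (adjusted p = 0.0431), a call lost under both other scalings. Ifngr1, a subunit of the interferon gamma receptor, was lower without overlap of the groups (83.1 against 68.2 FPKM, log2 fold change -0.29, adjusted p = 0.0791, limma) and passed as lower after quantile normalization. Ifngr2, the other subunit of that receptor, was higher without overlap (15.5 against 25.3 FPKM, 0.89, adjusted p = 0.14), with WT replicate 2 at 3.62 FPKM below the other WT values of 18.3 to 21.4 FPKM, and did not pass.

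Of 39 listed interferon-stimulated genes only 14 were tested, of which 2 rose, 1 fell and 11 did not pass, with a median log2 fold change of 0.36 (0.51 under median-of-ratios scaling and 0.50 after quantile normalization). Igtp, an interferon-inducible GTPase, rose from 0.579 to 2.33 FPKM (log2 fold change 1.08, adjusted p = 0.000585, limma) and Ifi35 from 8.72 to 20.9 FPKM (1.18, adjusted p = 0.00018), while Oas1a fell from 4.64 to 0.944 FPKM (-1.52, adjusted p = 0.000603). Bst2 (0.37, adjusted p = 0.0807), Parp9 (0.67, adjusted p = 0.0771) and Ddx58 (0.56, adjusted p = 0.0936) were higher at an unadjusted p under 0.05 in limma, and Bst2 and Parp9 passed as higher under both other scalings. Another 10 of the list had no value in any sample. Of 7 tested genes of the NF-kappaB pathway 5 fell (4 under the other scalings) and none rose, also at an unadjusted p under 0.05 in limma, with Nfkbia, the inhibitor of the pathway and one of its targets, falling by 0.97 on the log2 scale (adjusted p = 0.00198), followed by Rel (-0.69), Tnfaip3 (-0.67) and Rela (-0.55). Of 14 constitutive 20S proteasome genes 3 fell (Psma1, Psma3 and Psma5), no more than the 29.1% of all genes tested, and 11 did not pass. Under median-of-ratios scaling 1 fell (Psma5), and after quantile normalization 4 (Psma3, Psma5, Psmb3 and Psmb7). Of 9 listed MHC class II genes only 2 were tested, and the others had no value or were under the filter. H2-Ab1 was called lower (3.92 FPKM in WT and 0.197 in MG53-TG, -2.03, adjusted p = 3.65e-05, limma) and H2-DMa rose from 1.31 to 4.66 FPKM (1.30, adjusted p = 0.00015). H2-Ab1 reached the filter of 0.5 FPKM only through its WT values, so nothing is concluded from its call, nor from these 2 genes about class II as a whole.

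**Figure D5:**
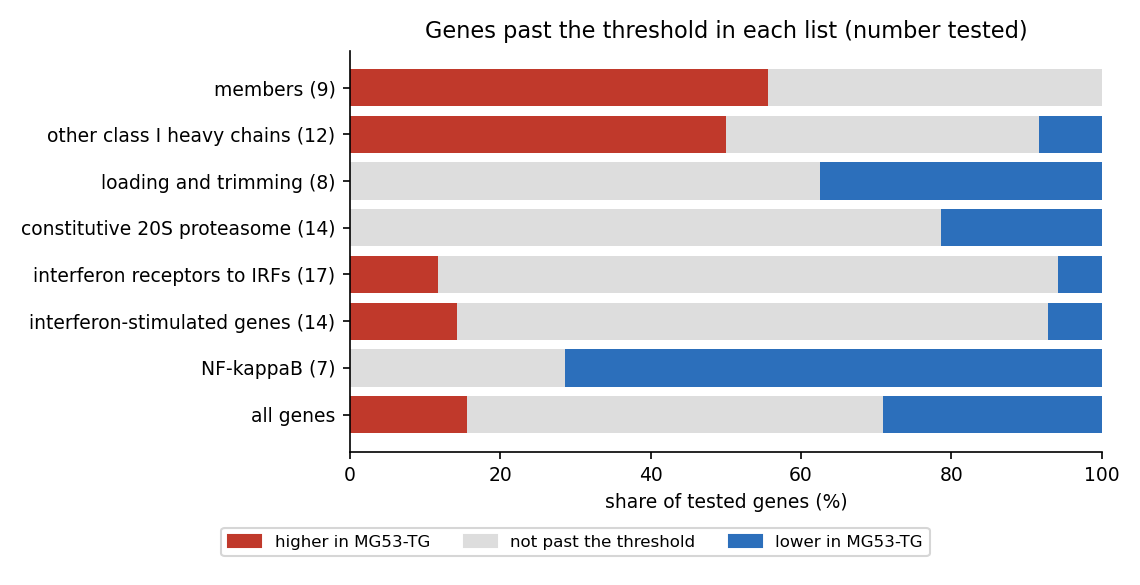
Share of tested genes in percent (x axis) that were higher (red), not past the threshold (grey) or lower (blue) in MG53-TG, for the members and 6 other lists, with the number tested in brackets, and for all genes tested. Higher calls make up 5 of 9 members and 6 of 12 other heavy chains, beside 15.5% of all genes, and there are none among the loading and trimming, constitutive 20S proteasome and NF-kappaB genes.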

How the data were processed

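The authors trimmed reads with Cutadapt 1.9.1, mapped them with Hisat2 2.0.1 (mm10 in the submitters' processing notes) and deposited FPKM per transcript event. The study's methods name HTSeq 0.6.1 (spelled Heseq) for FPKM, and a tool for the event rows is not given in the sources used here. Of 49773 start and end events, 88.63% had the inner exon boundary of exactly 1 GENCODE vM21 gene of GRCm38 and were assigned to it, 2039 of these to another gene than the deposited identifier. The gene value was the sum of start events, or of end events where their mean was higher. An absent value was missing where the group's other samples reached a median of 0.5 FPKM, otherwise 0. One FPKM per gene had been assumed in the design.

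Values were fitted with limma 3.58.1 (eBayes with trend) as log2(FPKM + 1), with no covariate, on genes whose mean reached 0.5 FPKM. The ratios of subunits were tested by exact permutation (two-sided, 70 relabellings). In data simulated for this comparison over 10433 genes, 68% of genes changed by 1 and 93% of those changed by 2 on the log2 scale were recovered, with 12 unchanged genes called. Only 200 genes were changed there, as many raised as lowered, whereas 44.6% of genes passed in the data. These rates therefore need not hold for the comparison itself. The samples share replicate numbers, but no label says what a number pairs, so no pairing was used. The study names a paired t test for marker genes of its organoid transcriptome. Deviations of same-numbered samples correlated at -0.05 to 0.10, which cannot show whether the samples were paired.

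The members and lists were chosen with earlier results of these data known. Named were the members, Trim72, the loading and heavy chain genes with a value, of the other pathway lists the genes past the threshold with the largest change (up to 4 a direction), and the 5 genes most like the members, and a few further genes were named after their values were seen (among them cell type markers, Ifngr1, Ifngr2, Bst2, Parp9, Ddx58, Epcam, Krt19, Fcer1g, Cd3d, Cd8a, Olfm4 and Psmb5 to Psmb7). The alternatives are given with their effects in the closing section. Keeping shared events and using deposited identifiers were added after seeing the data. The values of 1 listed gene are not reported here.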

Additional observations from a re-analysis of the deposited data

Results flagged for a closer look

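H2-T22 in WT replicate 4 was at 6.67 FPKM, apart from 5.46, 5.39 and 5.37 FPKM in the other WT samples by more than Dixon's 95% limit for 4 values. It was the only such value in 57 groups of 4 searched, where chance gives about 2.85.

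In Tap2, transcripts with a retained intron were at a mean of 0.528 FPKM in MG53-TG. They had no entry in WT and in MG53-TG replicate 1, and made up 16.3%, 26.7% and 15.1% of the intron's FPKM in MG53-TG replicates 2 to 4. They are part of the Tap2 levels compared above. Their share of the intron's FPKM overlapped between the groups and did not pass in a test that was not planned (two-sided exact permutation p = 0.143, adjusted p = 0.457). The form with the intron removed stood at 1.5 to 1.99 FPKM in WT and at 2.77 to 3.25 FPKM in MG53-TG, without overlap. WT samples held less Tap2 in all, and the part of that level in the absence of this form was not tested.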

How the results depend on the processing

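The calls of B2m, Tap2, Tapbp and Psmb9 held in every alternative that gave a value, and 4 to 6 members passed across all alternatives. Irf1 ranged from 0.486 to 0.688 on the log2 scale when 1 sample was left out, and passed in 4 of 8 fits. H2-K1 was 0.291 under median-of-ratios scaling (adjusted p = 0.0396), -0.059 after quantile normalization and -0.008 summed with H2-D1, and ranged without a call from 0.052 to 0.203 when 1 sample was left out. H2-D1 was 0.007 under median-of-ratios scaling, -0.234 after quantile normalization (adjusted p = 0.0244) and -0.182 without a filter (adjusted p = 0.0371). Median-of-ratios scaling moved the share of higher among all calls from 34.8% to 50.2% (2206 higher, 2185 lower), and quantile normalization to 44.7%. The causes were not tested. With a pseudocount of 0.1 FPKM the log2 fold change was -0.706 for Psmb8 and 1.388 for Psmb9 (adjusted p = 0.0851 and 0.00923, limma). At that setting the differences of the log2 ratios were 0.667 for Psmb10 to Psmb7, -0.507 for Psmb8 to Psmb5 and 1.418 for Psmb9 to Psmb6 (adjusted exact permutation p = 0.0286 each). With 1 sample left out they ranged from 0.466 to 0.716 for Psmb10 to Psmb7, from 0.756 to 1.099 for Psmb9 to Psmb6 and, with no call, from -0.199 (without MG53-TG replicate 4) to -0.062 (without WT replicate 3) for Psmb8 to Psmb5. The first and second passed only without WT replicate 3 (adjusted exact permutation p = 0.0429 each). All genes past the threshold numbered 3823 to 5090 when 1 sample was left out.

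Whether the replicate numbers pair the samples cannot be told from the labels or from the correlations given above. With the replicate block, 4375 of all genes and 5 of the members passed, and no member changed its call. Psmb8 and Psmb9 have no value at a mean of at least 2 FPKM, B2m has none from start events and Irf1 none from end events. No single end event of H2-K1 passed 1.06 FPKM, and none of Tap1 passed 0.000534 FPKM, so that alternative says nothing of these genes. Depth is unknown, and it limits what can be said of Psmb8 and other genes near 1 FPKM.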

Other observations

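As values chosen after the data had been seen, the exon of H2-K1 with a form 36 bases longer carried that form in 24.4%, 42.3%, 27.4% and 33.4% of its FPKM in WT replicates 1 to 4, and in 24%, 29.2%, 63.8% and 32.8% in MG53-TG replicates 1 to 4. The groups overlapped, and MG53-TG replicate 3 was the highest. Of the Irf1 start FPKM, 71.6%, 90.8%, 28% and 27.1% in WT and 77.9%, 79.5%, 79.8% and 45.6% in MG53-TG lay at the annotated gene start, and of the Tap1 start FPKM 91.6%, 96.5%, 67.7% and 46.4% in WT and 81.9%, 93.8%, 86.7% and 97.1% in MG53-TG. Cxcl10, an interferon-induced chemokine under the filter on low values, was at 0.913, 0.730, 1.5 and 0.553 FPKM in WT and had no entry in the MG53-TG samples. Other interferon-stimulated genes under the filter went both ways. Examples are Irgm2 (0.224 FPKM in WT and 0.642 in MG53-TG) and Cd274 (0.516 and 0.0848 FPKM), each with overlapping groups. Nothing is concluded from Cxcl10 alone.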
